A study of Mus musculus with 6 samples.

Results

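The cardiac myosins comprised 10 genes, taken by official symbol from the table of embryonic heart transcripts after the transcript values of each gene had been summed: the heavy chains Myh6, Myh7 and Myh7b, the light chains Myl1, Myl2, Myl3, Myl4 and Myl7, the myosin binding protein gene Mybpc3 and the light chain kinase gene Mylk3. All 10 were present among the 26199 genes of the table, and all 10 were among the 13262 genes tested. RNA was measured in whole mouse hearts collected at embryonic day 12, in 3 libraries from control embryos (Mrps5 fl/fl) and 3 from mutant littermates (Mrps5 fl/fl; cTNT-Cre), each made from a pool of several hearts. Mrps5 codes for a protein of the small subunit of the mitochondrial ribosome. Both groups carried the floxed Mrps5 alleles, and the mutants in addition carried Cre under the cardiac troponin T promoter, so that deletion was directed to cardiomyocytes and the other cells of the heart kept the gene. No group carried the Cre transgene without floxed alleles, so an effect of Cre itself and an effect of the deletion cannot be told apart.

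Cardiac muscle myosin II is a hexamer of a pair of heavy chains, each with a motor head that hydrolyses ATP and pulls on actin, and light chains that wrap around the neck of each head. An essential light chain and a regulatory light chain sit on every head, and phosphorylation of the regulatory chain by the kinase product of Mylk3 increases force. The mature heart uses separate sets in its chambers. Ventricles carry Myl2 as the regulatory and Myl3 as the essential chain, and atria carry Myl7 and Myl4 in their place. Myh6 codes for the fast alpha heavy chain, which is typical of atria in the embryo, and Myh7 for the slower beta heavy chain of embryonic ventricles. In the mouse embryo the chamber sets are not yet fully separated, and Myl7 and Myl4 transcripts are found in both chambers before they become restricted to atria.

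The promoters of 4 members are shown because these genes stand on both sides of the atrial and ventricular comparison and because the RefSeq start of each lies within 34 nt of the start of its most abundant transcript here. Each runs from 250 bases before to 50 bases from the start on the strand of the gene, 5′ to 3′, in RefSeq sequence of build GRCm38.p6. Capitals mark matches on either strand to a TATA box (TATAAA), to the MCAT element bound by TEAD factors (CATTCC, or GGAATG on the opposite strand) and to the CArG box bound by serum response factor. Myh6 and Myh7 lie next to each other on the minus strand of chromosome 14. Their windows are chr14:54966558-54966857 and chr14:54994577-54994876, that of Myl7 is chr11:5898733-5899032 on the minus strand, and that of Myl3 is chr9:110763428-110763727 on the plus strand.
Myh6: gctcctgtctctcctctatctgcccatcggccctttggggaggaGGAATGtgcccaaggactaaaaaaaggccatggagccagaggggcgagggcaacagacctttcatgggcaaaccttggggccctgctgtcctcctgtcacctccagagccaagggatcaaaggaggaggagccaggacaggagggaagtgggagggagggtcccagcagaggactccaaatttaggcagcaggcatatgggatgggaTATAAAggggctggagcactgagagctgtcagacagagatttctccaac
Myh7: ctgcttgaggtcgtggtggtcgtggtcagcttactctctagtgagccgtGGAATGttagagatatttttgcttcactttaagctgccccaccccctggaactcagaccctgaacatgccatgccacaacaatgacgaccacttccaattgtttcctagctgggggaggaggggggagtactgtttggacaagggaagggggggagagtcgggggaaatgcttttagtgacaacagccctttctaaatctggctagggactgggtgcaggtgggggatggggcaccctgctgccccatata
Myl7: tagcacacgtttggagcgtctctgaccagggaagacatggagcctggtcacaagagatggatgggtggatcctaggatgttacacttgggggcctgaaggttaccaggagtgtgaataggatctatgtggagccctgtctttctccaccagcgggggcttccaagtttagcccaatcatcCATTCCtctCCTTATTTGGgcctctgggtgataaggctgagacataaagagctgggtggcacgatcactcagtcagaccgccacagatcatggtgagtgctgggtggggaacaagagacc
Myl3: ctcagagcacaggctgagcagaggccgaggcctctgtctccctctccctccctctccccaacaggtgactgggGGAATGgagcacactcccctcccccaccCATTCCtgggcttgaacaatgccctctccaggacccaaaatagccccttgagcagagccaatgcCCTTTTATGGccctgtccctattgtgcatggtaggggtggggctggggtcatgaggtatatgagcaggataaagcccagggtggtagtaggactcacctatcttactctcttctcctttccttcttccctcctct
An MCAT match was present in all 4 windows, once each in Myh6, Myh7 and Myl7 and in 2 places in Myl3. Over the windows of all 10 members 5 held an MCAT match and 2 a CArG box, where 14.7% of the 32851 listed mouse promoters of this length held an MCAT match and 1.63% a CArG box. The 5 include Myl1, whose main transcript here starts 9702 nt downstream of the RefSeq start, outside the window. The same holds for Myl2 (7762 nt) and Myl4 (26618 nt), which had neither match. The CArG boxes were those of Myl7, from base -61 to -52, and of Myl3, from base -85 to -76. The TATA box of Myh6 lay at bases 2 to 7 after the listed start, and 13.6% of promoters held such a box. The MCAT matches lay at bases -206 to -201 in Myh6, -201 to -196 in Myh7 and -70 to -65 in Myl7. Both an atrial and a ventricular gene thus held each of the MCAT and CArG motifs. GATA sites (AGATAA, in 11.2% of promoters), T-box sites (GGTGTG, 19%) and the MEF2 motif (3.19%) had no match in these 4 windows, while NKX2-5 sites (AAGTGG, 16.9%) had 1 match each in Myh6 and Myh7, left in lower case. These matches describe the letters in a fixed window and say nothing of binding.

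The targeted gene was examined first. Mrps5 (ENSMUSG00000027374) was measured at 9.65, 11.4 and 10.4 FPKM (fragments scaled by transcript length and library size) in the controls and at 5.28, 7.41 and 10.4 FPKM in the mutants, given here and below in the order of replicates 1, 2 and 3. For Mrps5, the library labelled mutant replicate 3 was at the level of the controls. The log2 fold change of Mrps5, mutant minus control, was -0.44 (SE 0.19), with an adjusted p of 0.339 by limma with Benjamini-Hochberg adjustment over all genes tested. It was -0.66 without mutant replicate 3 and -0.23 without mutant replicate 1. Summed FPKM contains the RNA of non-muscle cells and does not separate the floxed exon from the rest of the transcript. The number of reads per library is unknown. In all 11 genes with an adjusted p under 0.05, mutant replicate 3 lay on the mutant side of every control. Those genes were picked by the same group difference. Trib3, with the smallest p, was at 18.4 FPKM in mutant replicate 3 and at 3.14 to 3.89 FPKM in controls. In mutant replicates 1 and 2 it was at 31.8 and 26.9 FPKM.

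The ventricular isoforms were lower in the mutant hearts. Myh7, Myl2 and Myl3 stood at 72.8% to 78.2% of their control means, and in each of the 3 genes every mutant library lay below every control library. The atrial light chains Myl4 and Myl7 were also lower in every mutant library, at 80.5% and 85.4% of the control mean. Myh6 had nearly the same mean in both groups, with a wider spread among the mutants. All 10 members had a negative log2 fold change, which turned positive for Myh6 and Myl7 when libraries were scaled to other cardiomyocyte genes, and 8 had an unadjusted limma p under 0.05, but none of the 10 passed the threshold of 0.05 after adjustment over all 13262 genes, where the lowest adjusted p of a member was 0.231. A negative log2 fold change was found in 7293 of the 13262 genes tested. Of all genes tested, 9.43% were lower at an unadjusted p under 0.05 and 5.58% were higher, 15.0% in either direction, and 0.0829% had an adjusted p under 0.05 (0.0302% with lower values). The median log2 fold change was -0.33 over the members and -0.02 over all genes tested. Without mutant replicate 3, the library with Mrps5 at the control level, 8 members were again lower at an unadjusted p under 0.05, against 8.81% of all genes tested, and 8 separated without overlap, against 17.6% of all genes with 3 against 2 libraries. The count of 8 fell to 1 without mutant replicate 1 (7.24% of all genes called lower), to 2 without mutant replicate 2 (9.76%) or control replicate 3 (8.02%), and to 4 without control replicate 1 (5.85%). Without mutant replicate 1, Myh7, Myl2 and Myl3 were at -0.34, -0.44 and -0.39, against -0.35, -0.45 and -0.40 with all libraries. Myl4, Mybpc3, Mylk3 and Myl1 were then at -0.24, -0.24, -0.28 and -0.47, against -0.31, -0.32, -0.32 and -0.67. Myh7b was at -0.65, against -0.52. Fold changes here are on the scale of log2(FPKM + 1), which understates the change of low genes.

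**Figure D1:**
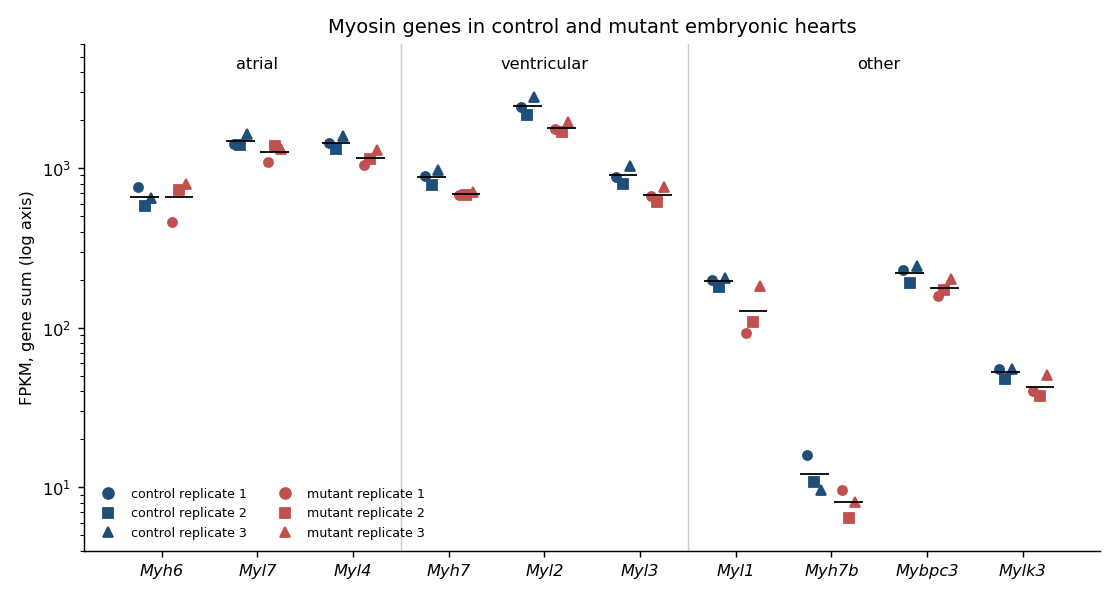
FPKM per gene (log axis) of the 10 myosin genes in the 3 control and 3 mutant libraries; each symbol is a library and each bar the mean of a group. The mutant libraries of Myh7, Myl2, Myl3, Myl4 and Myl7 all sit below the control libraries, while those of Myh6 spread from 460.5 to 797 FPKM around the control values.

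Among the heavy chains, Myh7 (ENSMUSG00000053093), the beta heavy chain of slow muscle and embryonic ventricles, was measured at 893, 779 and 978 FPKM in controls and at 682, 681 and 709 FPKM in mutants. The mutant libraries lay close together and all below the lowest control. Control and mutant means were 883 ± 99.6 and 691 ± 16.2 FPKM (SD, n = 3). On the log2 scale Myh7 differed by -0.35 (SE 0.12, 95% interval -0.62 to -0.08) with an unadjusted p of 0.0183 and an adjusted p of 0.242 by limma. Myh6 (ENSMUSG00000040752), the alpha heavy chain, was measured at 763, 579 and 647 FPKM in controls and at 460.5, 727 and 797 FPKM in mutants. Mutant replicate 1 held the lowest and mutant replicate 3 the highest value of all 6 libraries, so that the groups overlapped. The difference in Myh6 was -0.03 on the log2 scale (SE 0.21, adjusted p 0.960 by limma), with a 95% interval from -0.52 to 0.45 that contains the values measured for Myh7 and Myl2. Myh7b (ENSMUSG00000074652), a slow-tonic heavy chain gene that hosts a microRNA and whose mRNA is largely kept from being translated in mammalian heart, was lowest of all members. It stood at 15.9, 10.8 and 9.67 FPKM in controls and at 9.69, 6.39 and 8.06 FPKM in mutants, with mutant replicate 1 just above control replicate 3. The log2 fold change of Myh7b was -0.52 (SE 0.19, adjusted p 0.270 by limma), and -0.33 without control replicate 1.

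The regulatory light chain of ventricles, Myl2 (ENSMUSG00000013936), was the most abundant member in every library. It reached 2419, 2166 and 2795 FPKM in controls and 1751, 1674 and 1944 FPKM in mutants. All mutants lay below the lowest control, and the mean was 2459.8 ± 317 FPKM in controls and 1789.6 ± 139 FPKM in mutants (SD, n = 3). Its log2 fold change was -0.45 (SE 0.15, 95% interval -0.80 to -0.11) with an unadjusted p of 0.0159 and an adjusted p of 0.231 by limma. Under quantile normalization it was -0.24 (unadjusted p 0.213 by limma). Its atrial counterpart Myl7 (ENSMUSG00000020469) was measured at 1422, 1401 and 1629 FPKM in controls and at 1099.9, 1379 and 1321 FPKM in mutants. The groups of Myl7 did not overlap, but mutant replicate 2 lay only just below control replicate 2. The log2 fold change of Myl7 was -0.23 (SE 0.14), and this difference missed the threshold also before adjustment (unadjusted p 0.134, adjusted p 0.474 by limma). It was -0.13 without mutant replicate 1.

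The essential light chain of ventricles and slow skeletal muscle, Myl3 (ENSMUSG00000059741), was measured at 885, 794 and 1031 FPKM in controls and at 670.3, 615 and 765 FPKM in mutants. The highest mutant lay below the lowest control, and the log2 fold change was -0.40 (SE 0.14) with an unadjusted p of 0.0201 and an adjusted p of 0.251 by limma. Myl4 (ENSMUSG00000061086), the essential chain of atria and of embryonic muscle, was measured at 1441, 1317 and 1581 FPKM in controls and at 1054, 1146 and 1293 FPKM in mutants. These groups did not overlap either, although mutant replicate 3 came close to control replicate 2. For Myl4 the log2 fold change was -0.31 (SE 0.14), with an unadjusted p of 0.048 and an adjusted p of 0.328 by limma. Myl1 (ENSMUSG00000061816), the essential chain of fast skeletal muscle, which is also made in the embryonic heart, was measured at 199, 181 and 206 FPKM in controls and at 92.6, 109 and 182 FPKM in mutants. Mutant replicates 1 and 2 stood well below the controls and mutant replicate 3 lay between control replicates 1 and 2. The log2 fold change of Myl1 was -0.67 (SE 0.22, adjusted p 0.231 by limma). Without mutant replicate 3 it was -0.95 with an adjusted p of 0.00576, the only setting in which a member passed the adjusted threshold. Without mutant replicate 1 it was -0.47 (unadjusted p 0.0551 by limma) and without mutant replicate 2 it was -0.58 (0.0559).

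Mybpc3 (ENSMUSG00000002100) codes for cardiac myosin binding protein C, which tethers myosin heads along the thick filament. It was measured at 231, 189.7 and 244 FPKM in controls and at 159, 172 and 202 FPKM in mutants, with mutant replicate 3 above control replicate 2. Mylk3 (ENSMUSG00000031698), the cardiac myosin light chain kinase, was measured at 55.6, 48.0 and 55.2 FPKM in controls and at 40.1, 37.2 and 50.4 FPKM in mutants, where mutant replicate 3 was again above control replicate 2. The log2 fold changes were -0.32 (SE 0.13, adjusted p 0.309) for Mybpc3 and -0.32 (SE 0.12, adjusted p 0.292) for Mylk3 by limma. Groups without overlap, all with the mutants below, were thus found in 5 of the 10 members (Myh7, Myl2, Myl3, Myl4 and Myl7), against 13.0% of all genes tested with mutants below and 7.74% with mutants above. In whole hearts, fewer cardiomyocytes and less RNA of these genes per cardiomyocyte cannot be told apart.

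FPKM is scaled by transcript length, so levels could be ordered between genes. In controls Myl2 stood first in FPKM, Myl7 and Myl4 followed, then Myl3 and Myh7, then Myh6, then Mybpc3 and Myl1, then Mylk3 and last Myh7b. Neighbours in this order whose 3 control libraries overlapped were Myl7 and Myl4, Myl3 and Myh7, and Mybpc3 and Myl1. The other steps separated without overlap. The order of the mutants was the same but for Myh7, which had a mean above that of Myl3, and there Myh7, Myl3 and Myh6 could not be placed in order because each overlapped the next.

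Summed by role, the regulatory light chains Myl2 and Myl7 together were at 3943 ± 438 FPKM in controls and 3056 ± 208 FPKM in mutants, 77.5% of the control mean. The essential light chains Myl1, Myl3 and Myl4 together were at 2545 ± 264 and 1976 ± 230 FPKM, 77.6% of the control mean. Each of these sums was lower in all 3 mutants than in all 3 controls, which gave an exact two-sided permutation p of 0.1, the smallest that 3 against 3 libraries allow. The heavy chains together were at 1558 ± 165 and 1360.1 ± 187 FPKM and overlapped between the groups (exact permutation p 0.3). Per unit of heavy chain FPKM there were 2.54 ± 0.213 units of regulatory light chain in controls and 2.26 ± 0.183 in mutants, and 1.64 ± 0.112 and 1.46 ± 0.129 units of essential light chain. Neither quotient separated the groups (exact permutation p 0.2 for both). Since RNA was measured, these quotients do not give the make-up of the protein.

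The atrial and ventricular isoforms were then compared within each library, where total input cancels. Myh6 made up 46.1%, 42.6% and 39.8% of the summed FPKM of Myh6 and Myh7 in controls and 40.3%, 51.6% and 52.9% in mutants. Mutant replicates 2 and 3 lay above all controls and mutant replicate 1 within them. The log2 ratio of Myh6 to Myh7 was -0.42 ± 0.18 in controls and -0.10 ± 0.40 in mutants (exact two-sided permutation p 0.3). Myl7 made up 37.0%, 39.3% and 36.8% of the summed FPKM of Myl7 and Myl2 in controls and 38.6%, 45.2% and 40.5% in mutants. Again only mutant replicate 1 fell among the controls, and the log2 ratio was -0.72 ± 0.08 in controls and -0.50 ± 0.20 in mutants (exact permutation p 0.2). Myl4 made up 62.0%, 62.4% and 60.5% of the summed FPKM of Myl4 and Myl3 in controls and 61.1%, 65.1% and 62.8% in mutants, with log2 ratios of 0.68 ± 0.06 and 0.77 ± 0.12 (exact permutation p 0.4). All 3 ratios were higher in the mutant means, by 0.32, 0.22 and 0.09 on the log2 scale, and none was distinguishable from the spread between libraries (0.4 for each after Benjamini-Hochberg adjustment over the 3 exact permutation tests). The smallest exact permutation p that this design allows is 0.1. Leaving out 1 library moved the difference of Myh6 to Myh7 between 0.18 (without mutant replicate 3) and 0.55 (without mutant replicate 1), that of Myl7 to Myl2 between 0.11 (without mutant replicate 2) and 0.31 (without mutant replicate 1), and that of Myl4 to Myl3 between 0.022 (without mutant replicate 2) and 0.145 (without mutant replicate 1). Under quantile normalization the difference of Myl7 to Myl2 was -0.019 and that of Myl4 to Myl3 was 0.245.

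**Figure D2:**
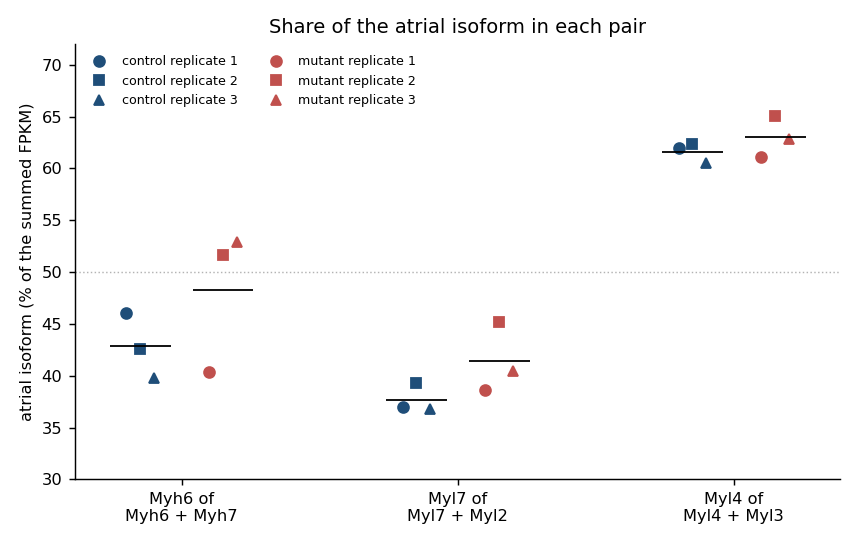
Share of the atrial isoform in the summed FPKM (%) of each atrial and ventricular pair, with a symbol per library and a bar at the mean of each group; the dotted line marks 50%. Mutant replicate 2 is the highest library for Myl7 (45.2%) and Myl4 (65.1%), while mutant replicate 1 lies within the controls in all 3 pairs.

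Part of the spread of Myh6 came from a single transcript. The full-length transcript ENSMUST00000081857 (6113 nt in GENCODE M21) was listed at 563, 529 and 555 FPKM in controls and at 448, 521 and 544 FPKM in mutants. This transcript alone varied little among the controls, and mutant replicate 3 fell within their range. A second transcript, ENSMUST00000134256, was listed at 186, 43.8 and 70.1 FPKM in controls and at 9.46, 198 and 243 FPKM in mutants. It made up between 2.05% of Myh6 in mutant replicate 1 and 30.5% in mutant replicate 3, and in control replicate 1 it was at 24.4%. Its identifier is not among those of GENCODE M21, where the other 38 of 39 transcripts of the members were found. With the most abundant transcript in place of the gene sum, the log2 fold change of Myh6 was -0.13 and the difference of the Myh6 to Myh7 ratio was 0.21 (exact permutation p 0.3), and with the transcripts of M21 alone these were -0.14 and 0.20 (exact permutation p 0.2). In the M21 sequences of their main transcripts, 22.6% of the windows of 50 bases in Myh6 were also found in Myh7. Reads that lie wholly within such stretches can be assigned to either gene. The split between the alpha and beta heavy chains may thus be less certain than their sum. How many reads were of this kind was not tested. No other pair of members shared a window of that length.

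Mybpc3 and Mylk3 were also split between transcripts. For Mylk3, ENSMUST00000122452 (3036 nt) held 35.9% to 63.7% and ENSMUST00000034133 (3696 nt) 34.7% to 62.5%, both limits being set by mutant replicates 1 and 2. For Mybpc3, ENSMUST00000137942 (4134 nt) held 90.9%, 90.4% and 5.99% of Mybpc3 in the controls and 2.42%, 6.89% and 87.7% in the mutants, and ENSMUST00000169776 (4163 nt) held the rest. This share of Mybpc3 was either near all or near none and did not follow genotype. With 1 transcript in place of the gene sum, the difference of Mybpc3 turned from -0.32 to 0.92 (adjusted p 0.771 by limma), so only the gene sum of Mybpc3 was used. Myl2, Myl3, Myl4, Myl7, Myh7 and Myl1 came to between 88.6% and 100% from 1 transcript each. For Myl1 this was ENSMUST00000119429 (803 nt, 97.7% of the gene), which starts 9702 nt downstream of the start listed by RefSeq. Myl1 is known to make a longer and a shorter essential chain from separate promoters.

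**Figure D3:**
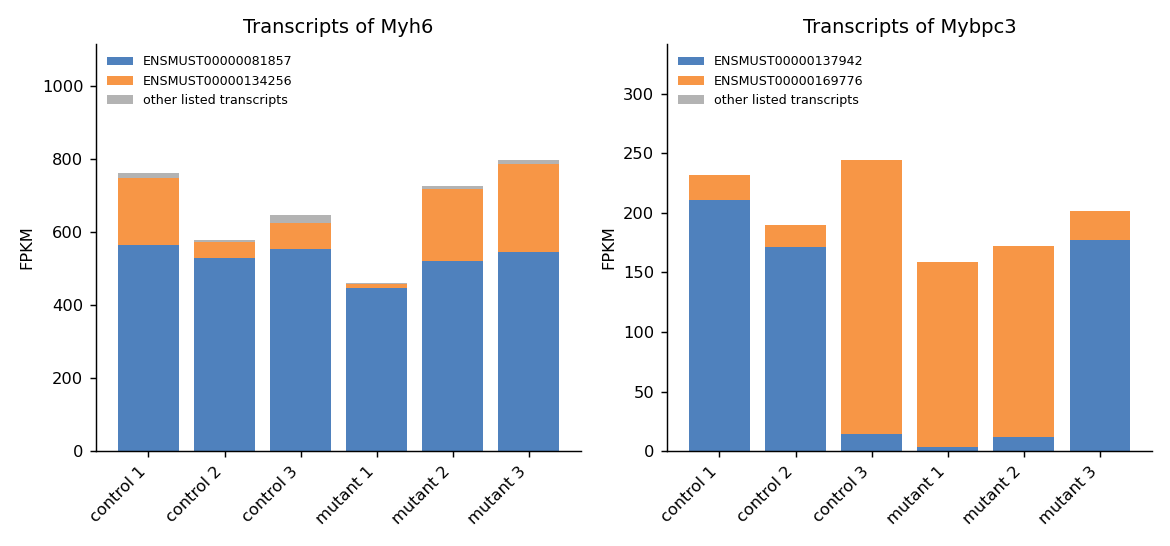
FPKM of the transcripts of Myh6 and Mybpc3 in each library, stacked to the gene sum. ENSMUST00000134256 makes up from 9.46 to 243 FPKM of Myh6, and the bars of Mybpc3 switch between a pair of transcripts in both groups while their sum stays between 159 and 244 FPKM.

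The myosins were compared with the other genes of the muscle cell. Of 15 non-myosin cardiomyocyte genes, 15 had a negative log2 fold change and 7 had an unadjusted p under 0.05, with a median of -0.28, which is close to the -0.33 of the myosins. Tnnt2, cardiac troponin T, was measured at 617 to 683 FPKM in mutants and 948 to 1044 FPKM in controls, a log2 fold change of -0.60 (SE 0.11, adjusted p 0.0954 by limma). Tcap, a cap of titin at the Z-disc, was at 11.4 to 19.6 against 22.9 to 29.1 FPKM, and Ttn, the giant spring protein titin, at 372 to 483 against 547 to 693 FPKM, with log2 fold changes of -0.82 and -0.51 (adjusted p 0.140 and 0.174 by limma). The summed level of the 15 genes was 7554 to 8681 FPKM in controls and 6104 to 7217 FPKM in mutants, without overlap. The myosins made up 1.60% to 1.95% of all FPKM in controls and 1.17% to 1.44% in mutants.

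When every library was scaled to these 15 genes, no myosin was called at an unadjusted p under 0.05 and none separated the groups without overlap, where 1.61% of all genes tested were called lower and 1.97% separated with mutants below. The median of all genes then moved from -0.02 to 0.21, and of the genes called the share with lower values moved from 62.8% to 4.98%. On this scale Myh7 was at -0.08, Myl2 at -0.18 and Myl3 at -0.13, while Myl7 was at 0.04 and Myh6 at 0.24. Myl1 was furthest below, at -0.40 (SE 0.18, unadjusted p 0.0503 by limma). Measured against the other cardiomyocyte genes of the same libraries, no myosin difference passed the test.

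**Figure D4:**
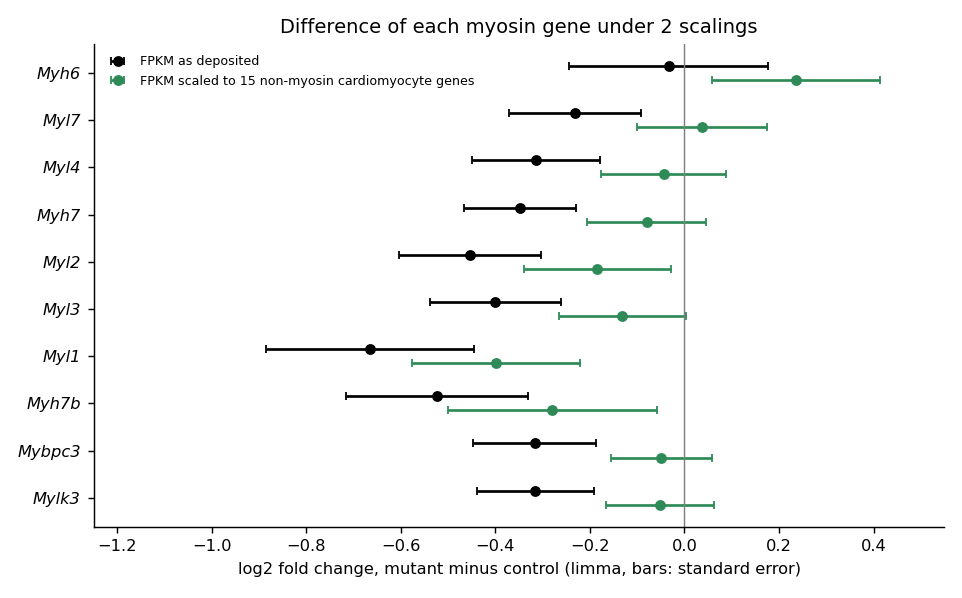
Difference of each myosin gene, mutant minus control, as log2 fold change with its standard error from limma (3 libraries a group), for FPKM as deposited and for FPKM scaled to 15 non-myosin cardiomyocyte genes. As deposited, all 10 points lie below 0; after scaling Myh6 and Myl7 lie above it and the values run from -0.40 for Myl1 to 0.24 for Myh6.

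Markers of other cell types moved with the groups in part. Erythroid genes made up 12.0% to 13.3% of all FPKM in controls, and 23.5%, 10.8% and 21.9% in the respective mutants. Of the 10 erythroid genes tested 9 were higher in mutants and 4 had an unadjusted p under 0.05, with a median log2 fold change of 0.63, which was 1.02 without mutant replicate 2 and 0.42 without mutant replicate 3. Slc4a1, the anion exchanger of red cells, was at 186 to 213 FPKM in controls and at 395, 205 and 555 FPKM in mutants. The FPKM of all other genes summed to 399068, 405717 and 413292 in controls and to 394946, 407065 and 394743 in mutants. With erythroid genes left out of the scaling, all 10 myosins still had negative values, 5 of the 10 with an unadjusted p under 0.05 (7.98% of all genes tested), and 4 separated without overlap (10.6%). The 3 members no longer called moved little, Myl4 from -0.31 to -0.29 (unadjusted p 0.0578 by limma), Mybpc3 from -0.32 to -0.29 (0.0525) and Mylk3 from -0.32 to -0.29 (0.0529). The share of lower genes among all called was then 52.4%. With the erythroid level as a covariate in the limma fit, 6 members were called lower at an unadjusted p under 0.05 (5.66% of all genes tested), and Myl4 (-0.31, unadjusted p 0.108) and Mybpc3 (-0.32, 0.0917) were not. In that fit Myh7 was at -0.35, Myl2 at -0.50 and Myl3 at -0.48, Myl7 was at -0.12 and Myh6 at 0.11.

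Epicardial genes, which line the heart surface, were at 136 to 156 FPKM in sum in controls and 133 to 178 FPKM in mutants. Upk1b was the 1 of 6 with an unadjusted p under 0.05, at a log2 fold change of 0.37, and the list median was 0.08. Endothelial and endocardial genes had a median of -0.12, with Emcn higher (0.27) and Npr3 lower (-0.25) at an unadjusted p under 0.05, of 7 tested. Leaving out 1 library moved the endothelial median between -0.183 (without mutant replicate 2) and -0.071 (without mutant replicate 1). None of 8 mesenchymal genes and none of 3 macrophage genes tested passed the unadjusted threshold by limma, with medians of 0.09 and -0.05. When 1 library was left out the median ran from -0.015 to 0.285 for mesenchymal, from -0.156 to 0.135 for macrophage and from -0.050 to 0.188 for epicardial genes, lowest without mutant replicate 2 for the first and without mutant replicate 1 for the others, and highest without mutant replicate 3 for all 3 lists. Summed mesenchymal markers ran from 362 to 371 FPKM in controls and from 316 to 451 FPKM in mutants. The part of these cell types in the myosin differences was not tested.

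Non-myosin genes of the chambers were read beside the isoforms. All 5 ventricular genes had negative values and 4 had an unadjusted p under 0.05, with a median log2 fold change of -0.41. Pln, phospholamban, the inhibitor of the calcium pump, was at 37.1, 41.6 and 49.9 FPKM in controls and at 23.0, 25.2 and 34.1 FPKM in mutants (-0.64, SE 0.16, adjusted p 0.161 by limma). The ventricular transcription factor genes Hey2 and Irx4 had log2 fold changes of -0.41 and -0.58, and all 3 genes separated the groups. Atrial genes did not move one way. Of 7 tested, 5 were lower and 2 higher, with a median of -0.39. With mutants below, 3 of the 7 separated without overlap, as did 3 of the 5 ventricular genes, against 13.0% of all genes tested. Sln, sarcolipin, was low throughout, at 1.49 to 2.22 FPKM in controls and 0.614 to 1.13 FPKM in mutants, and Nr2f1, a transcription factor gene of atria, had a log2 fold change of -0.48. Nppa, atrial natriuretic peptide, which embryonic ventricles also make, was at 751, 620 and 793 FPKM in controls and at 1397, 1463 and 781 FPKM in mutants, a log2 fold change of 0.70 (SE 0.24, adjusted p 0.240 by limma). In mutant replicate 3 its value fell among the controls, as did those of Mrps5 and Myl1. The 11 genes with an adjusted p under 0.05, picked by the group difference, lay with the mutants in that library.

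**Figure D5:**
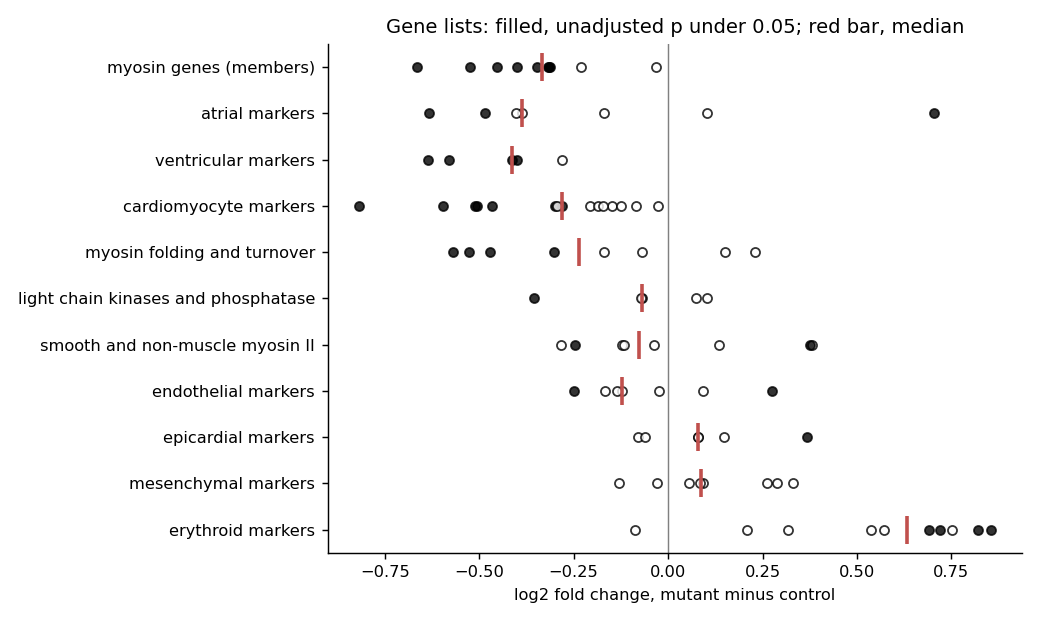
Difference of each tested gene, mutant minus control (log2 fold change), by gene list; filled points have an unadjusted limma p under 0.05 and the red bar is the median of the list. The medians of the cardiomyocyte (-0.28), ventricular (-0.41) and atrial (-0.39) genes lie near that of the myosins (-0.33). Of the 7 atrial genes, 2 are higher. The erythroid genes lie at the other end (0.63).

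Genes that act on myosin were lower in part. Of 8 genes of myosin folding and turnover, 6 were lower and 2 higher, and 4 of the 6 had an unadjusted p under 0.05, with a list median of -0.24. Smyd1, a muscle methyltransferase that assists myosin folding, was measured at 102, 97.6 and 109 FPKM in controls and at 56.5, 69.3 and 83.9 FPKM in mutants. The mutants lay below all controls, with a log2 fold change of -0.57 (SE 0.14, adjusted p 0.154 by limma). Unc45b, the myosin chaperone of striated muscle, was at 46.8, 41.0 and 52.5 FPKM in controls and at 25.9, 32.0 and 39.5 FPKM in mutants (-0.53, adjusted p 0.198 by limma). Trim55, a ubiquitin ligase of the sarcomere, had a log2 fold change of -0.30 and also separated the groups. Of the kinase and phosphatase genes that act on regulatory light chains, 5 of 7 were tested, and Ppp1r12b, a targeting subunit of myosin phosphatase in striated muscle, was the only one with an unadjusted p under 0.05. It stood at 18.2, 14.2 and 16.6 FPKM in controls and at 11.3, 13.2 and 13.1 FPKM in mutants (-0.36, adjusted p 0.216 by limma). Among relatives of Mybpc3, 2 of 4 were tested, and neither Mybphl (-0.16) nor Mybpc1 (0.00) passed the unadjusted threshold. Mybphl still separated the groups, with the highest mutant at 14.31 FPKM and the lowest control at 14.37 FPKM.

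Myosins of other cells served as a contrast within the family. Of the smooth muscle and non-muscle myosin II genes 8 of 9 were tested, 3 higher and 5 lower, with a median of -0.08. Myl6, the essential light chain found in most cells, was at 423 to 463 FPKM in controls and 358 to 381 FPKM in mutants, a log2 fold change of -0.25 (SE 0.09, adjusted p 0.278 by limma). Myl6b had a log2 fold change of 0.37 at a level of 1.32 to 2.91 FPKM, and Myl9, the smooth muscle regulatory chain, one of -0.28 with overlapping groups. Of the skeletal muscle myosins 1 of 7 passed the filter on low values. This was Mylpf, the regulatory chain of fast skeletal muscle, at 10.4, 11.1 and 10.9 FPKM in controls and at 4.25, 5.78 and 8.78 FPKM in mutants (-0.75, SE 0.20, adjusted p 0.170 by limma). Of 6 skeletal muscle markers 2 were tested. Ckm, muscle creatine kinase, was at 1.35, 1.07 and 2.09 FPKM in controls and at 0.525, 0.506 and 0.928 FPKM in mutants, without overlap (-0.59, SE 0.19, adjusted p 0.223 by limma). Tnnt3, fast skeletal troponin T, was at 5.30, 6.44 and 5.62 FPKM in controls and at 2.59, 3.70 and 6.68 FPKM in mutants (-0.42, adjusted p 0.458 by limma). The other 4, the factors Myod1, Myog, Myf5 and Pax7, named after their values were seen, did not pass the filter, were at most 2.16 FPKM and were highest in mutant replicate 2. The part of skeletal muscle in the values of Myl1 and Mylpf was not tested. No gene in any of these lists had an adjusted p under 0.05 by limma.

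As a description, the genes whose log2 values over the 6 libraries were most like the mean of the 3 ventricular isoforms were Osbpl2 (Pearson r 0.990), Atox1 (0.989), Atp5h (0.988), Fxyd1 (0.981) and Atp5g3 (0.980). Atp5h and Atp5g3 code for subunits of ATP synthase, Atox1 for a copper chaperone and Fxyd1 for phospholemman, the regulator of the sodium pump in heart. Their own log2 fold changes ran from -0.45 for Fxyd1 to -0.14 for Atp5h, and Atox1 went from 37.4 to 45.2 FPKM in controls to 30.1 to 35.0 FPKM in mutants. Most like the mean of the 3 atrial isoforms were Smim7 (0.994), Uap1 (0.990), Epb41l3 (0.989), Bmp7 (0.986) and Ppp2r5c (0.986). Bmp7, a growth factor gene, was at 24.8, 21.4 and 25.3 FPKM in controls and at 16.1, 20.95 and 24.5 FPKM in mutants, lowest in mutant replicate 1 as were Myh6, Myl4 and Myl7. These genes were picked from all genes with a mean of at least 10 FPKM as the most alike, and 6 libraries that share the group difference give such values no weight as evidence.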

How the data were processed

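Total RNA of whole embryonic hearts was depleted of ribosomal RNA and made into strand-specific libraries. The authors deposited FPKM values, 1 per transcript and library, in a table of 60776 transcripts. The submitters' processing notes name, with no role or order, build mm9, Bowtie2 2.2.8, HISAT2, StringTie 1.3.1 and Cuffdiff 2.1.1, and the annotation release is not given in the sources used here. Steps of FPKM were not whole multiples that could be read back: the most frequent ratio of low single-transcript genes covered 10.8% to 20.1% of them, so depth is unknown and no counting interval is given.

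The FPKM of each gene were summed, and log2(FPKM + 1) of genes with at least 1 FPKM in at least 3 of 6 libraries was tested with limma 3.58.1 (R 4.3.3; empirical Bayes with trend, no block, Benjamini-Hochberg over all genes tested). Ratios and sums were compared by exact two-sided permutation. Members, gene lists and tests were chosen with earlier results of these data known. Named genes were all members, Mrps5, up to 3 genes per list with the smallest p, and the 5 most correlated with each isoform set. Outside this rule, 4 skeletal muscle factors and Trib3 are named. Alternatives changed the block, pseudocount, filter, scaling, transcripts and libraries. The labels call the replicates biological and give no sequencing batch. RNAs hosted by or antisense to the heavy chain genes were not analysed here.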

Additional observations from a re-analysis of the deposited data

How the results depend on the processing

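There were 17 alternatives (13 for the ratios, 15 for the separation of members and 16 for the macrophage list); the one restricted to transcripts of GENCODE M21 was added after seeing the data. Myh7, Myl2, Myl3, Myl4, Myl1, Myh7b and Mylk3 kept negative values in all 17. Depth is unknown, so the counting error of low genes such as Myh7b cannot be given. Members lower at an unadjusted p under 0.05 numbered 5 without the filter on low values (7.73% of all genes called lower), 5 with scaling without erythroid genes (7.98%) and 0 with scaling to cardiomyocyte genes (1.61%), against 8 (9.43%). Members without overlap numbered 0 with the last of these (1.97% of all genes tested separated with mutants below), against 5 (13.0%). All genes called at an unadjusted p under 0.05 numbered 1314 with a mean of at least 5 FPKM and 4297 with scaling to cardiomyocyte genes, against 1991. At an adjusted p under 0.05 they numbered 4 with the replicate block, 5 without the filter, 32 with scaling to cardiomyocyte genes, 4 with the most abundant transcript, 6 without the trend and 7 with the erythroid level as covariate, against 11. Of genes called, the share with lower values was 62.8%, and 50.3% with the erythroid covariate.

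Leaving out 1 library gave 1 (without mutant replicate 1) to 8 members lower at an unadjusted p under 0.05, with 2 without control replicate 3, 2 without mutant replicate 2 and 4 without control replicate 1, while 5.85% to 9.76% of all genes were called lower. Members with an adjusted p under 0.05 numbered 0 to 1. Members without overlap numbered 5 to 8, where 16.7% to 22.8% of all genes separated with mutants below. With all 6 libraries this share was 13.0%. All genes called numbered 1216 to 2166 unadjusted and 5 to 269 adjusted (269 without mutant replicate 3, 119 without mutant replicate 2).

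The sign of Myh6 turned, to 0.24 with scaling to cardiomyocyte genes and 0.11 with the erythroid covariate, and ran from -0.19 (without mutant replicate 3) to 0.21 (without mutant replicate 1) when 1 library was left out. Myl7 turned to 0.038 with scaling to cardiomyocyte genes and Mybpc3 to 0.92 with the most abundant transcript. The Myl7 to Myl2 difference turned to -0.019 under quantile normalization. The causes were not tested.

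With scaling to cardiomyocyte genes the median log2 fold change was 0.038 for atrial isoforms, -0.13 for ventricular isoforms, 0.19 for smooth and non-muscle myosins, 0.20 for light chain kinases and phosphatase, 0.14 for myosin binding proteins, 0.017 for myosin folding and turnover, -0.15 for atrial and -0.16 for ventricular markers, -0.015 for cardiomyocyte, 0.14 for endothelial, 0.34 for epicardial, 0.34 for mesenchymal and 0.17 for macrophage markers. With the erythroid covariate it was 0.10 for smooth and non-muscle myosins, 0.029 for kinases and phosphatase, -0.038 for endothelial and 0.052 for erythroid markers. With the most abundant transcript it was 0.049 for smooth and non-muscle myosins, -0.020 for endothelial and -0.9995 for skeletal muscle markers. Skeletal muscle markers were at -0.80 with a pseudocount of 0.1 and at 0.12 without the filter, where skeletal muscle myosins were at 0.030. Atrial markers were at -0.17 with a mean of at least 5 FPKM. Leaving out 1 library gave medians of -0.14 to 0.044 for smooth and non-muscle myosins, -0.084 to -0.0084 for kinases and phosphatase, -0.33 to -0.16 for folding and turnover, -0.46 to -0.20 for atrial and -0.35 to -0.17 for cardiomyocyte markers.

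The replicate numbers were not taken to pair the libraries. Deviations from the group means of same-numbered libraries correlated at 0.215, 0.108 and 0.0892 over all genes, and each library correlated best with its own number, a hint from the data and not from the design. With the replicate block 2217 genes were called at an unadjusted p under 0.05 and 4 at an adjusted p. At an unadjusted p 8 members were lower (11.0% of all genes called lower), against 8 (9.43%) without the block.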
